A study of Rattus norvegicus with 24 samples.

Results

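Delayed estradiol was compared with vehicle in the hippocampus of female rats, in 17 of the 24 RNA sequencing libraries of the study: 3 libraries of the group called Treatment (replicates 5, 6 and 7) and all 14 vehicle libraries, pooled. Treatment rats had their ovaries removed at 6 months of age, received vehicle for 3 weeks and then estradiol (E2) for 2 weeks. Of the vehicle libraries, 7 came from rats ovariectomised at the same age (OVX) and 7 from rats that kept their ovaries (SHAM), both given vehicle for 7 weeks. The age given for SHAM rats is also 6 months. All groups were females of 1 species and 1 tissue, and the labels give no strain, dose or route, and no time between surgery and tissue collection. Total time of treatment thus differed between the arms (5 weeks against 7), as did the presence of ovaries in SHAM, so estradiol and these differences cannot be told apart. The labels do not say that each library came from its own animal, so the p-values measure only the spread between these libraries.

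The libraries were chosen by their level of LOC257642, a feature known by its locus number, whose values fall into a low and a high set. On the log2 scale it measured 14.51, 14.53 and 14.27 in Treatment 5, 6 and 7, and 14.02 to 15.23 in the vehicle libraries. The 7 libraries left out, Treatment 1 and 2 and the 5 libraries of the group called Prevention (ovariectomised, 5 weeks of estradiol), measured 16.84 to 19.73. The highest library inside the limit thus had 15.23 and the lowest outside it 16.84. These values set the membership and are given as a description.

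Estradiol acts in the hippocampus through the nuclear receptors Esr1 and Esr2 and the membrane receptor Gper1. Glucocorticoids from the adrenal gland act there through the glucocorticoid receptor (Nr3c1) and the mineralocorticoid receptor (Nr3c2), and genes such as Sgk1, Per1, Tsc22d3 and Fkbp5 are textbook targets of Nr3c1. Brain cholesterol is made locally, from acetyl-CoA through mevalonate and squalene, under control of the transcription factor Srebf2 and its brake Insig1.

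Normalised counts of each of the 17 libraries summed to between 35.4 and 37.4 M (mega), and Spearman correlations between pairs of libraries across genes ran from 0.987 to 0.995. The markers of dentate gyrus granule cells summed to 30147 to 42549 normalised counts per library and those of CA pyramidal cells to 54316 to 86203, so the hippocampal origin given by the labels showed in every library. Tissue from next to the hippocampus was also present. The summed choroid plexus markers ran from 1975 to 88204 in Treatment, from 1360 to 89906 in OVX and from 996 to 171572 in SHAM. Ttr, the thyroid hormone carrier that is the defining choroid transcript, measured 12498, 71606 and 1019 in Treatment 5, 6 and 7, against 384, 6007 and 136652 as the lowest, median and highest vehicle library. Tcf7l2, a transcription factor of thalamic and habenular neurons, measured 376, 1573 and 310 against 278, 321 and 3357. Treatment 6 was thus rich in both kinds of marker and Treatment 7 poor in both, and OVX 2 and SHAM 5 were the vehicle libraries with the highest thalamus score (9.98 and 10.14, against 9.92 in Treatment 6, as the mean log2 level of the markers).

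**Figure D1:**
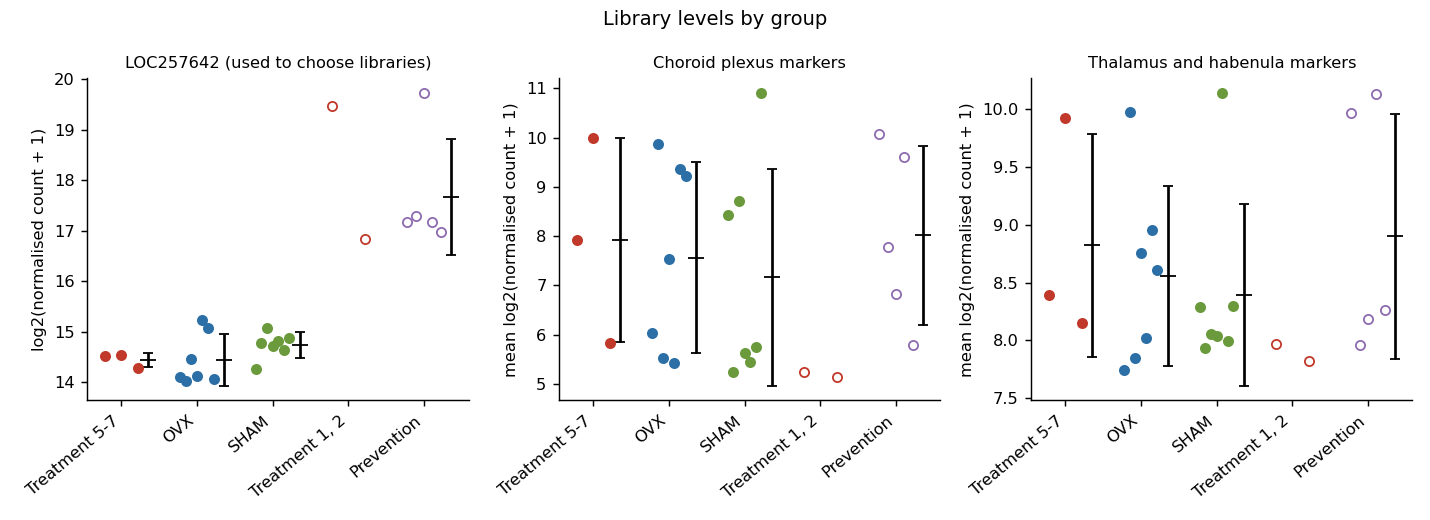
LOC257642 (log2 scale), choroid plexus score and thalamus score (mean log2 level of the marker list) for each library, by group. Filled points are the 17 libraries compared and open points the 7 left out. Bars give the mean ± SD of the filled points of each group and of the open Prevention points. The filled points all lie at or below 15.23 for LOC257642, while both scores spread widely within each group.

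The question of this comparison is what starting estradiol after a delay did to hippocampal transcripts, with libraries of the low LOC257642 set only. Of 16119 genes tested with limma, 2 passed an adjusted p of 0.05 (0.0124% of those tested), and both rose: Pdk4, a kinase that shuts off the pyruvate dehydrogenase complex and so turns mitochondria from glucose towards fatty acids, and Fdft1, the squalene synthase that makes the first step committed to sterols. No gene fell by this test. At an unadjusted p of 0.05, 264 genes were higher in Treatment (1.64% of those tested) and 367 lower (2.28%), in all 631 where 806 would be expected with no difference at all. In 27 genes all 3 Treatment libraries lay above all 14 vehicle libraries (0.168%), and in 24 they all lay below (0.149%). The median change over all genes was 0.01 on the log2(normalised count + 1) scale, which is the scale of every change below.

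Pdk4 measured 365, 508 and 614 normalised counts in Treatment 5, 6 and 7. The vehicle libraries had 73.4 as the lowest, 150 as the median and 273 as the highest value. Every Treatment library thus lay above every vehicle library, with OVX (121 to 273) reaching higher than SHAM (73.4 to 177). The means were 496 ± 125 (SD, n = 3) and 154 ± 49.4 (SD, n = 14). Pdk4 rose by 1.72 ± 0.26 (SE; n = 3 and 14), which is 3.29-fold, with an adjusted p of 0.0347 in limma. The change was 1.49 against OVX alone and 1.94 against SHAM alone. The libraries left out, which the fit did not use, measured 369 and 294 in Treatment 1 and 2, also above all vehicle libraries, and 146 to 345 in Prevention. All of these are of the high LOC257642 set, which holds no vehicle library. For them, here and below, estradiol and the library set cannot be told apart. The other kinases of the complex had values near the vehicle level. Pdk1, Pdk2 and Pdk3 (chosen after their values were seen) differed by -0.04 ± 0.06, -0.01 ± 0.04 and 0.08 ± 0.07, each with an adjusted p of 1.00. Their values overlapped between the groups, as with Pdk2 at 4244, 3916 and 3836 against 3801, 4048 and 4288.

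Fdft1 measured 3652, 3588 and 3746 normalised counts in Treatment 5, 6 and 7, against a lowest, median and highest vehicle value of 2955, 3091 and 3324. The groups did not overlap, with means of 3662 ± 79.6 (SD, n = 3) and 3104 ± 104 (SD, n = 14). Fdft1 rose by 0.24 ± 0.04 (SE; n = 3 and 14), which is 1.18-fold, with an adjusted p of 0.0347 in limma, and by like amounts against OVX (0.23) and SHAM (0.25). Treatment 1 and 2 measured 3340 and 3636, and Prevention 3320 to 3927.

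Both calls lie near the threshold. Neither gene passed with OVX only as controls or with the replicate number as a block. Over 37 alternatives Pdk4 kept a change of 1.49 to 1.94 and Fdft1 one of 0.21 to 0.25, while the adjusted p ran from 0.00589 to 0.366 and from 0.0161 to 0.450. Both calls were lost without Treatment 5, 6 or 7 (adjusted p 0.0943, 0.365 and 0.366 for Pdk4) and without OVX 1, 2, 6 or 7 or SHAM 1, 2, 3, 4 or 5 (0.0549 to 0.0758 for Pdk4, the same range for Fdft1), and that of Fdft1 also without SHAM 6. Without the 3 libraries of highest thalamus score (Treatment 6, OVX 2 and SHAM 5) both had an adjusted p of 0.366.

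**Figure D2:**
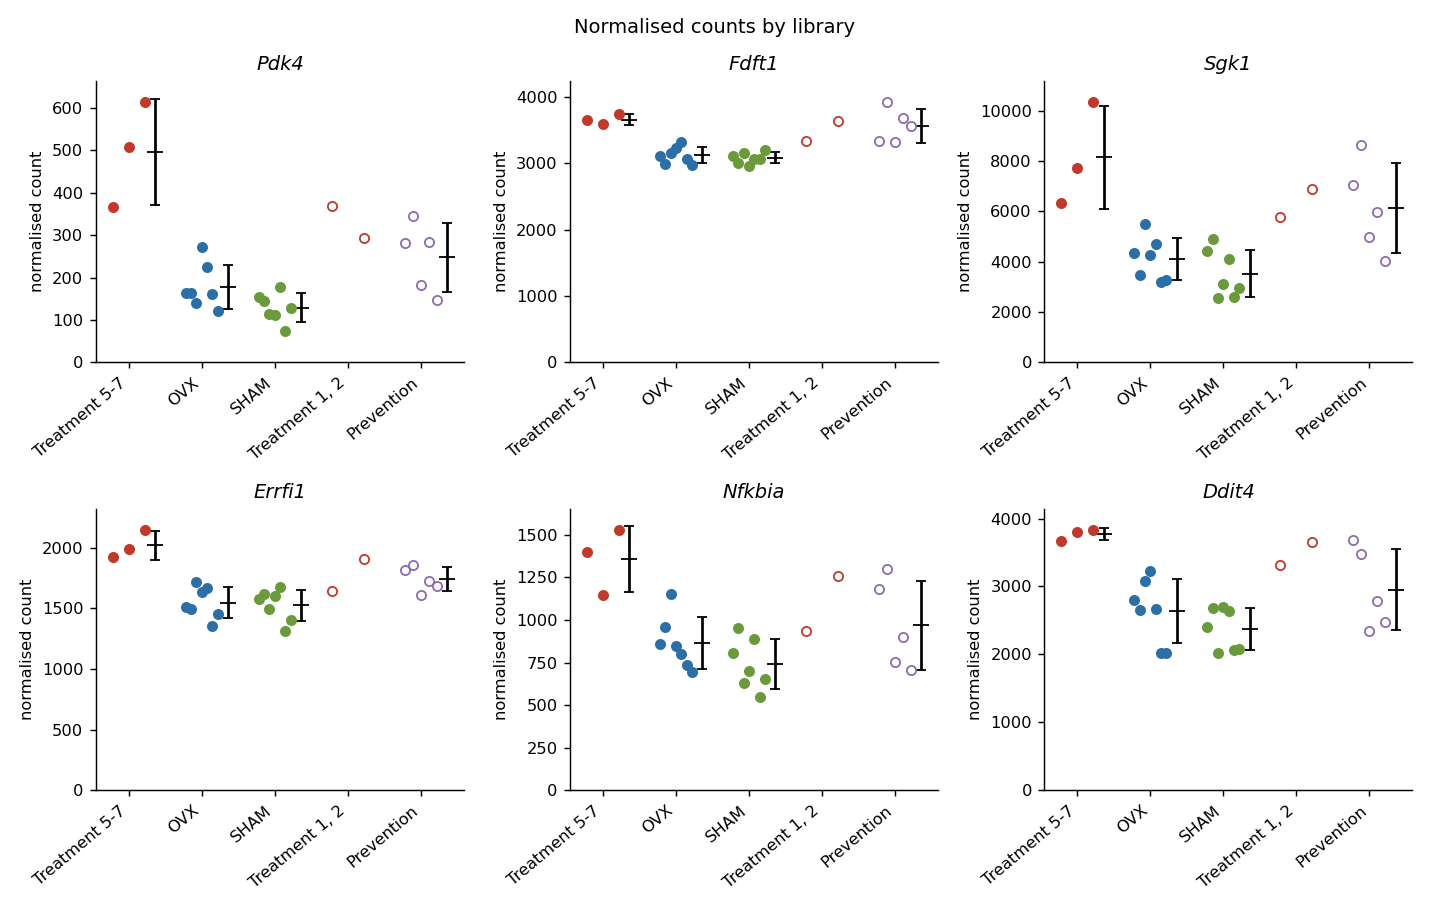
Normalised counts of Pdk4, Fdft1, Sgk1, Errfi1, Nfkbia and Ddit4 in each library, by group. Filled points are the 17 libraries compared and open points Treatment 1 and 2 and Prevention, which were left out. The filled Treatment points lie above all vehicle points in each panel except Nfkbia, where OVX 3 (1152) passes Treatment 6 (1149).

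Pdk4 belongs to a list of 30 glucocorticoid-responsive genes, all of them tested. This list, like the others below, was chosen with earlier results of these data known, so its counts are a description only. In this list 25 genes were higher in Treatment and 5 lower, with a median change of 0.21 against 0.01 for all genes tested, of which 52.8% were higher (8505 of 16119). Of the 30, 1 passed the adjusted test (Pdk4), and 10 had an unadjusted p under 0.05, all of them higher. In 5 every Treatment library lay above every vehicle library. Over all genes tested these shares were 0.0124%, 1.64% on the higher side and 0.168%. The summed level of the list was 67679 to 75513 normalised counts in Treatment, 54190 to 66134 in OVX and 53198 to 67740 in SHAM. The median was 0.18 against OVX (24 of 30 higher) and 0.24 against SHAM (26 of 30 higher), comparisons that share the Treatment libraries.

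Sgk1, a kinase that regulates ion channels and is induced by corticosteroids, measured 6344, 7745 and 10355 normalised counts in Treatment 5, 6 and 7 against 2553, 3807 and 5497 (lowest, median and highest vehicle library). The groups did not overlap, and the change of 1.10 ± 0.20, or 2.14-fold, had an adjusted p of 0.107 in limma and did not pass. Treatment 7 had the highest value of both Pdk4 and Sgk1. Treatment 1 and 2, left out with the high LOC257642 set, had 5774 and 6892 for Sgk1, again above every vehicle library. Prevention had 4044 to 8641. Errfi1, a feedback inhibitor of the EGF receptor, measured 1921, 1987 and 2149 against 1311, 1543 and 1716. It too showed no overlap, with a change of 0.40 ± 0.07 and an adjusted p of 0.107, while Treatment 1 at 1645 lay within the vehicle range and Treatment 2 at 1907 above it.

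Ddit4, an inhibitor of mTOR signalling that stress and glucocorticoids induce, measured 3672, 3808 and 3837 against 2014, 2648 and 3227. Per1, a core repressor of the circadian clock, measured 4167, 4050 and 4047 against 2471, 2873 and 3987. For both genes the 3 Treatment libraries agreed closely and lay above all vehicle libraries, with changes of 0.61 ± 0.13 (adjusted p 0.199) and 0.47 ± 0.11 (adjusted p 0.288). Nfkbia, the inhibitor that holds NF-kappaB in the cytoplasm, measured 1401, 1149 and 1531 against 547, 803 and 1152. The groups overlapped there by 1 library, OVX 3, and the change of 0.78 ± 0.16 had an adjusted p of 0.199. Sult1a1, a sulfotransferase of phenols and steroids, measured 595, 654 and 596 against 374, 419 and 612, an overlap through 1 SHAM library (0.47 ± 0.12, adjusted p 0.535).

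The remaining 3 genes with an unadjusted p under 0.05, named after their values were seen, were Arrdc2 (0.31, p 0.00898), the metallothionein Mt1 (0.38, p 0.0140) and the scaffold Nedd9 (0.19, p 0.0318), each with an adjusted p of 1.00 in limma. Mt1 measured 214, 194 and 271 against 134, 174 and 219, so only Treatment 7 stood above the vehicle range. Fkbp5, the cochaperone of Nr3c1 that glucocorticoids induce in many tissues, lay elsewhere. It measured 2496, 2705 and 2686 against 2197, 2873 and 3628, within the vehicle range in all 3 libraries, with a change of -0.11 ± 0.13. Tsc22d3, the leucine zipper protein GILZ, measured 3095, 3191 and 3255 against 1907, 2790 and 3437, with a change of 0.26 ± 0.16. The other 4 genes on the lower side had changes from -0.13 to -0.03.

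**Figure D3:**
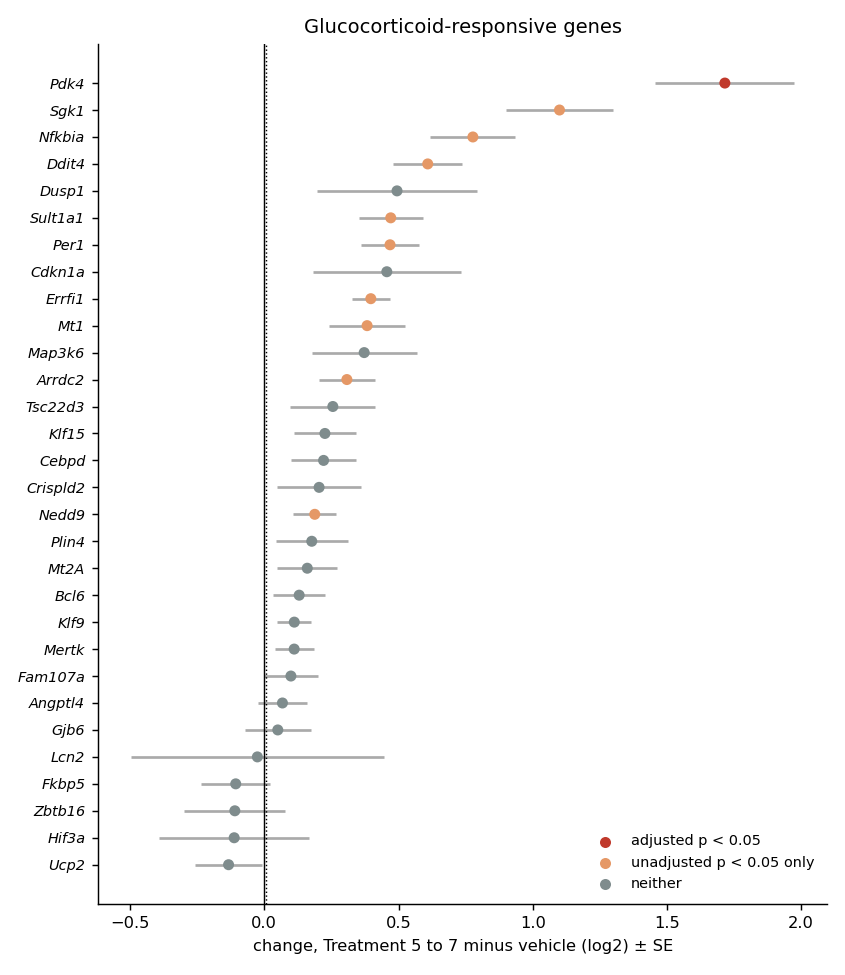
Change (log2 scale) of the 30 glucocorticoid-responsive genes in Treatment 5 to 7 against the 14 vehicle libraries, with bars of 1 SE. The dotted line marks the median of all genes tested (0.01), and 25 of the 30 points lie above 0, led by Pdk4 at 1.72 and Sgk1 at 1.10.

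The promoters of the 4 genes of this list with the smallest p are printed to show the sequence at their start sites, since they were higher together. Each window holds 250 bases before to 50 bases after the start, from RefSeq on the GRCr8 assembly, read 5′ to 3′ on the strand of the gene. Pdk4 lies on the minus strand (chr4:34568280-34568579), Errfi1 on the plus strand (chr5:166606591-166606890), Sgk1 on the minus strand (chr1:24807182-24807481) and Nfkbia on the minus strand (chr6:78597023-78597322). Capitals mark a match to a searched motif.
Pdk4: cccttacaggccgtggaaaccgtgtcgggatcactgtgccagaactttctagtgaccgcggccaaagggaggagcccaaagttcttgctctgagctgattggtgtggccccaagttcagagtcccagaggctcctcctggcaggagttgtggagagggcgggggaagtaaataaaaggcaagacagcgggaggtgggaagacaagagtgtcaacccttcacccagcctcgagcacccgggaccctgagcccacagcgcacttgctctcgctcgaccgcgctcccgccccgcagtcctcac
Errfi1: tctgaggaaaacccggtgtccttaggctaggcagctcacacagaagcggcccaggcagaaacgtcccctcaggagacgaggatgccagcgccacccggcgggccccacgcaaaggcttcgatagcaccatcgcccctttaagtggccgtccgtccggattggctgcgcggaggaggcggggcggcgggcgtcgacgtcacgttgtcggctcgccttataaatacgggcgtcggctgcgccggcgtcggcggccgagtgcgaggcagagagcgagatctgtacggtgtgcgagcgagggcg
Sgk1: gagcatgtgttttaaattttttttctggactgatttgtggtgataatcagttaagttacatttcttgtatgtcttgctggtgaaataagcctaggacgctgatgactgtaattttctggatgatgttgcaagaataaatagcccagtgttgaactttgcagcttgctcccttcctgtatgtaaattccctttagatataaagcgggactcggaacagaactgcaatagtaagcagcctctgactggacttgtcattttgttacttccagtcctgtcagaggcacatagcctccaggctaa
Nfkbia: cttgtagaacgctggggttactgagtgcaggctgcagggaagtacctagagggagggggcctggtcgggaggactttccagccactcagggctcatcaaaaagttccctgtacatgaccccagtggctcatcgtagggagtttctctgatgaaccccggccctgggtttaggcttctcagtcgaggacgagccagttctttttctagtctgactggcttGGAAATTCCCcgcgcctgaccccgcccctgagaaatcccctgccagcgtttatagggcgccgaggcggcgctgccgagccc

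The motifs were searched on both strands. The glucocorticoid response element (GNACA, any 3 bases, TGTNC) was in none of the 4 windows. It was in 2 of the 28 windows available for the list (Fam107a and Map3k6), against 30 of 11212 windows of all genes tested (0.268%). The estrogen response element (GGTCA, any 3 bases, TGACC) was in 0 of the 11212. The cyclic AMP response element (TGACG followed by TCA) was in 1 of the 28 (Dusp1), against 2.93% of all. The kappaB site (GGG, any 2 bases, TTTCC), a search added after the data were seen, was in 1 of the 28, Nfkbia, whose match, on the strand opposite to the one printed, begins 31 bases before the start, against 1.77% of all. A match is a description of the letters, and the lack of one says only that they do not occur in this window.

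The receptors themselves did not pass the test. Nr3c1 measured 3554, 3459 and 3700 normalised counts in Treatment 5, 6 and 7 against 2618, 3482 and 3942 in vehicle (0.08 ± 0.10), and Nr3c2 2292, 2133 and 2973 against 1641, 2484 and 3346 (0.01 ± 0.16). All Treatment values of both lay within the vehicle range. In the list of corticosteroid receptors and local steroid activation, 4 of 7 tested genes were higher and 0 passed, with 0 at an unadjusted p under 0.05. Esr1, the main estrogen receptor, was low throughout, at 75.1, 137 and 29.5 against 57.7, 95.9 and 161 (-0.39 ± 0.32). Leaving out single libraries moved this from -0.89 (without Treatment 6) to 0.20 (without Treatment 7). Treatment 7 had the lowest Esr1 of the 17 libraries and Treatment 6 the highest of the 3. Esr2 measured 24.4, 43.0 and 20.0 against 10.6, 21.9 and 42.7 (0.25 ± 0.32), Gper1 differed by 0.10 ± 0.17, and the progesterone receptor Pgr, a classical estrogen target, measured 459, 443 and 370 against 315, 416 and 548 (0.02 ± 0.14). The sign of Esr2 and Gper1 turned without Treatment 6 (-0.064 and -0.034), that of Pgr without Treatment 5 (-0.042) or 6 and that of Nr3c2 without Treatment 7 (-0.13), and the last 2 also without some vehicle libraries. In the list of estrogen receptors and estrogen-responsive genes, 13 of 19 were higher and 0 passed, and 1 had an unadjusted p under 0.05, Xbp1, a transcription factor of the unfolded protein response (-0.20, p 0.0232). Without Treatment 6, 8 of the 19 were higher. Over all genes tested 52.8% were higher and 0.0124% passed. At an unadjusted p under 0.05 in limma, 1.64% of them were higher and 2.28% lower.

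Fdft1 belongs to the 34 genes of cholesterol synthesis, uptake and efflux, of which 33 were tested. In this list 24 genes were higher and 9 lower, with a median change of 0.08, and 8 had an unadjusted p under 0.05, all higher. Of the 33, 1 passed the adjusted test (Fdft1), and in 3 all Treatment libraries lay above all vehicle libraries. Over all genes tested 52.8% were higher, and 1.64% were higher at an unadjusted p under 0.05 in limma. There 0.0124% passed, and in 0.168% all Treatment libraries lay above all vehicle libraries. The median of the list was 0.07 against OVX and 0.10 against SHAM. The summed level overlapped, at 220237 to 257365 in Treatment and 221253 to 259376 in OVX and 226627 to 246715 in SHAM.

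Stard4, a carrier of cholesterol between membranes, measured 690, 674 and 647 normalised counts against 423, 525 and 643. Insig1, which holds the SREBP complex in the endoplasmic reticulum, measured 3448, 3127 and 3153 against 2235, 2662 and 3095. Both lay above every vehicle library, by narrow margins, with changes of 0.33 ± 0.09 (adjusted p 0.723 in limma) and 0.27 ± 0.08 (adjusted p 0.812). Also with an unadjusted p under 0.05, and named after their values were seen, were Idi1 (0.22), the squalene epoxidase Sqle (0.19), the HMG-CoA synthase Hmgcs1 (0.15) and the last-step reductase Dhcr7 (0.14). Sqle measured 3015, 2762 and 2849 against 2260, 2518 and 2900. The 9 genes on the lower side reached -0.13 at most. Without Treatment 5, the number of members with an unadjusted p under 0.05 was 5 and 25 were higher. Without the 3 libraries of highest thalamus score it was 10, with 23 higher.

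**Figure D4:**
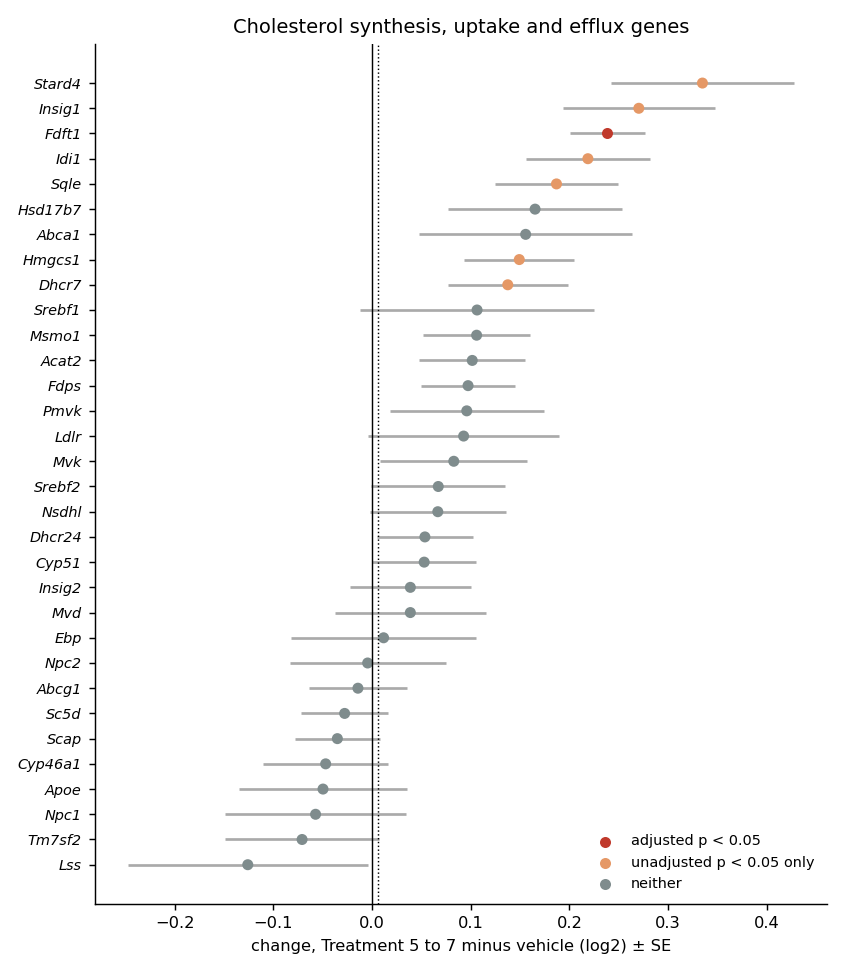
Change (log2 scale) of 32 of the 33 tested genes of cholesterol synthesis, uptake and efflux in Treatment 5 to 7 against the 14 vehicle libraries, with bars of 1 SE. The dotted line marks the median of all genes tested (0.01), and 23 points lie above 0, with Stard4 at 0.33 and Fdft1 at 0.24.

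Clock and activity genes did not pass the adjusted test. Over all genes tested, 52.8% were higher. An unadjusted p under 0.05 in limma was found for 1.64% on the higher side and 2.28% on the lower side. In the circadian clock list 16 of 19 tested genes were higher, with a median of 0.09, and 3 had an unadjusted p under 0.05 on the higher side: Per1, the repressor Ciart (0.38, p 0.00792) and Nfil3 (0.26, p 0.0372). Tef, an activator of clock output, was on the lower side (-0.14, p 0.0191). Ciart measured 360, 431 and 366 against 226, 312 and 392.03, so its groups overlapped. The labels give no time of day. Of 27 immediate early genes, which neurons switch on within minutes of activity, 16 were higher and 5 had an unadjusted p under 0.05, all higher: Arc (0.47, p 0.0142), Maff (0.68, p 0.0166), Egr2 (0.72, p 0.0198), Nr4a1 (0.41, p 0.0219) and Egr1 (0.34, p 0.0440; named after its value was seen). Arc, whose protein takes part in synaptic scaling, measured 5362, 3717 and 4432 against 2427, 3256 and 4604. Its Treatment values overlapped the vehicle range, and none of these clock or activity genes besides those named had an unadjusted p under 0.05. The adjusted p was 1.00 for each of them but Per1. Without Treatment 5 or without Treatment 7, 12 of the 27 immediate early genes were higher.

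Beyond the lists, the genes with the smallest p after those above did not pass either, and they are described by their levels. Tmem252 measured 96.0, 118 and 92.7 normalised counts against 38.7, 58.1 and 65.7, a change of 0.92 ± 0.18 with no overlap (adjusted p 0.163 in limma), while Treatment 1 and 2 measured 71.8 and 66.3. Clybl, a mitochondrial enzyme of citramalyl-CoA breakdown, measured 590, 452 and 441 against 301, 359 and 421 (0.47 ± 0.09, adjusted p 0.199). Tiparp, a mono-ADP-ribosyltransferase induced by the aryl hydrocarbon receptor, measured 455, 423 and 411 against 285, 316 and 401 (0.43 ± 0.09, adjusted p 0.199). Slc10a6, a carrier of sulfated steroids, measured 73.2, 100.1 and 77.7 against 39.1, 47.3 and 67.2 (0.76 ± 0.17, adjusted p 0.226). In all 4 genes every Treatment library lay above every vehicle library. So it was with Tob2, an antiproliferative adaptor of mRNA deadenylation, at 1102, 1101 and 1072 against 626, 829 and 992, with Plekhf1, a phosphoinositide-binding adaptor of lysosomes, at 383.3, 465 and 499 against 204, 289 and 383.1, and with Tagap, a GTPase-activating protein of immune cells, at 113, 94.6 and 103 against 36.04, 58.7 and 78.9. Their changes were 0.46, 0.64 and 0.82, with adjusted p of 0.248, 0.535 and 0.327. Relb, an NF-kappaB subunit, measured 200, 179 and 139 against 80.5, 115 and 138 (0.58 ± 0.14, adjusted p 0.445), and Cttnbp2nl differed by 0.23 ± 0.05 (adjusted p 0.229).

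On the lower side, Foxq1, a forkhead transcription factor, measured 91.9, 71.2 and 80.5 against 104, 138 and 178, below every vehicle library (-0.74 ± 0.15, adjusted p 0.199 in limma). Treatment 1 at 104 and Treatment 2 at 141 did not lie below that range. Oprd1, the delta opioid receptor, measured 74.2, 36.7 and 56.1 against 71.3, 94.0 and 125, with Treatment 5 inside the vehicle range (-0.81 ± 0.17, adjusted p 0.209). Treatment 1 and 2 measured 95.9 and 93.1, close to the vehicle median. Fam57b, a regulator of ceramide synthesis, measured 1782, 1620 and 1503 against 1735, 2042 and 2188 (-0.29 ± 0.06, adjusted p 0.219), and Treatment 1 and 2, at 1539 and 1681, lay below all vehicle libraries. Apcdd1, an inhibitor of Wnt signalling, measured 1071, 888 and 923 against 1043, 1301 and 1438 (-0.39 ± 0.09, adjusted p 0.288). The potassium channel Kcnj14 and the histone demethylase Kdm2b differed by -0.31 ± 0.08 and -0.21 ± 0.05 (adjusted p 0.446 and 0.596).

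Markers of cell types were also compared, and no member of these lists passed the adjusted test. Of all genes tested, 52.8% were higher, and 1.64% were higher at an unadjusted p under 0.05 in limma. In bulk tissue fewer cells of a type and less RNA per cell cannot be told apart. Of 24 endothelial, mural and meningeal genes 22 were higher, with a median of 0.14, and 3 had an unadjusted p under 0.05, all higher: the glucose transporter Slc2a1 (0.14), the pericyte potassium channel Kcnj8 (0.33) and the lipid transporter Mfsd2a (0.19). Their summed level was 27756 to 35216 in Treatment, 24440 to 33988 in OVX and 25133 to 40422 in SHAM. Without Treatment 5, which had the highest endothelial score of the 17 libraries (10.11), 13 of the 24 were higher, with a median of 0.02. The part of these cells in the glucocorticoid-responsive result was not tested. With their score as a covariate 27 of the 30 glucocorticoid-responsive genes were higher, with a median of 0.23. Choroid plexus genes had a median of 0.62 (15 of 16 higher) and thalamic and habenular genes one of 0.29 (16 of 18 higher), with no member at an unadjusted p under 0.05 in either. Both directions rested on Treatment 6. Without that library the medians were -0.50 (1 of 16 higher) and -0.13 (3 of 18 higher). Without the 3 libraries of highest thalamus score, 24 of the 30 glucocorticoid-responsive genes were higher, with a median of 0.23 and 11 at an unadjusted p under 0.05.

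Microglial genes had a median of 0.06, with 13 of 22 higher and 1 at an unadjusted p under 0.05, the protease Ctss (0.16, p 0.00832). Its values were 7064, 7517 and 7747 against 5931, 6640 and 7309. Of 24 myelin and oligodendrocyte genes 10 were higher, and the 1 with an unadjusted p under 0.05 was on the lower side, Enpp6, a marker of newly formed oligodendrocytes, at 285, 236 and 359 against 292, 400 and 521 (-0.42, p 0.0171). The myelin count turned on single libraries, with 21 of 24 higher without Treatment 5 and 3 of 24 without Treatment 6 or without Treatment 7. Astrocyte genes had a median of 0.02, and Gfap, their intermediate filament, measured 32368, 36802 and 36396 against 34837, 40570 and 49297 (-0.20, p 0.0510). Interferon-induced genes had 11 of 37 higher against OVX (median -0.06) and 30 of 37 against SHAM (0.09), a difference that was not tested. Against the pooled vehicle libraries 21 of the 37 were higher, but 11 without Treatment 6. None of the 37 had an unadjusted p under 0.05 in the pooled comparison in limma. Of all genes tested, 1.64% were higher at this threshold and 2.28% lower, and 52.8% were higher at any p.

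Neuronal lists had medians from -0.05 to 0.11. For comparison, 52.8% of all genes tested were higher. At an unadjusted p under 0.05 in limma, 1.64% of all genes were higher and 2.28% lower. GABAergic and interneuron genes had a median of 0.11 (20 of 24 higher, 0 at an unadjusted p under 0.05), glutamatergic synapse genes -0.01 (15 of 33 higher, 20 without Treatment 6), dentate granule cell genes -0.05 (5 of 12) and CA pyramidal genes -0.04 (8 of 19). The kainate receptor subunit Grik5 was the 1 glutamatergic gene with an unadjusted p under 0.05 (-0.18, p 0.0450). Ribosomal protein genes had a median of 0.05 with 48 of 54 higher, though 32 against OVX alone and 50 against SHAM alone, and 2 had an unadjusted p under 0.05, Rps10 (0.22) and Rps25 (0.15). Nuclear oxidative phosphorylation genes had a median of 0.04 (37 of 45 higher, 0 at an unadjusted p under 0.05). With all 5 Treatment libraries 20 of the 54 ribosomal and 14 of the 45 oxidative phosphorylation genes were higher, with medians of -0.01 and -0.02. In the list of pyruvate, glycolysis and fatty acid use, which also holds Pdk4, 35 of 40 genes were higher, with a median of 0.05, and 3 had an unadjusted p under 0.05: Pdk4, Slc2a1 and Acadl, an acyl-CoA dehydrogenase of fatty acid oxidation (0.15, p 0.0226). Heat shock and chaperone genes had a median of 0.01, neurosteroid synthesis genes 0.01 and blood genes 0.00.

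**Figure D5:**
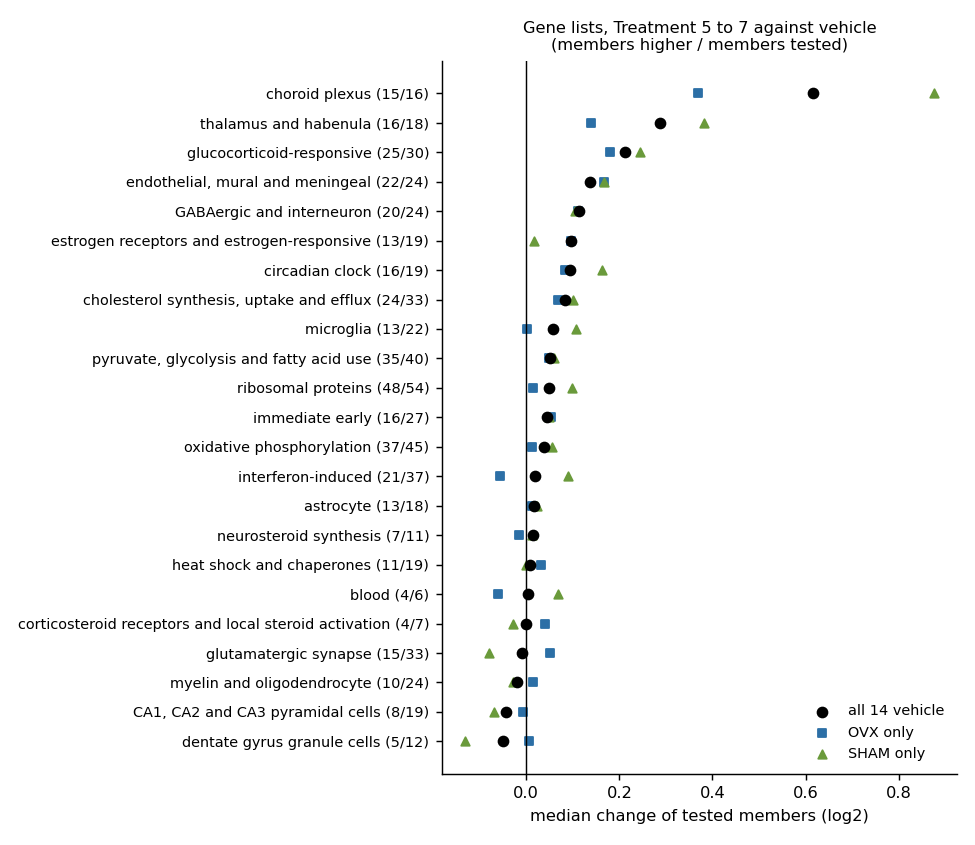
Median change (log2 scale) of each gene list in Treatment 5 to 7 against all 14 vehicle libraries, against OVX only and against SHAM only, with the number of tested members that were higher against all 14. Choroid plexus (0.62), thalamus and habenula (0.29) and glucocorticoid-responsive genes (0.21) have the highest medians against all vehicle libraries. Without Treatment 6 the first 2 are -0.50 and -0.13, and the third is 0.23.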

How the data were processed

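RNA from hippocampal tissue was extracted with TRIzol and spin columns, DNase was applied, and library preparation was Illumina's standard one, per the labels' protocols. Reads were quantified with kallisto 0.43 and normalised with DESeq2 (version not given), per the submitters' processing notes; build, annotation and batches were not given in the sources used here. Values as deposited are normalised counts, a signal in arbitrary units that the authors made for each gene and library. Whole reads could not be recovered (5.62 to 19.3% of low values were whole multiples of a library's smallest step), so depth is unknown, counting intervals were not computed and precision rests on the spread between libraries.

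All 24 columns were matched to samples by title. Of 20318 features 2378 had no symbol (954 of those tested). The comparison was fitted with limma 3.58.1 in R 4.3.3 to log2(normalised count + 1), with an empirical Bayes step and mean-variance trend, on genes with a mean of at least 10 over all 24 libraries, Treatment 5 to 7 against OVX and SHAM pooled, with Benjamini-Hochberg adjustment over all genes tested and a threshold of 0.05. This scale understates the change of low genes. A list's score is the mean log2 level of its members. Plots were made in matplotlib 3.10.9 under Python 3.11.15. Promoter sequences came from RefSeq, assembly GRCr8.

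The compared libraries and the gene lists were chosen with earlier results of these data known. Named genes were up to 12 rises and 12 falls that passed, having a symbol and a mean of 50 or more, then those of smallest unadjusted p until 24 were named, up to 4 members per list by smallest p, and receptors and markers fixed by name; those whose function is best known are given, and others are marked as chosen after their values were seen. Some named values are not reported here. Alternatives were pseudocounts of 0.5 and 8, 3 other filters, quantile and upper quartile scaling, a robust fit, library weights, separate or single vehicle groups, all 5 Treatment libraries, the library set as a term, choroid or thalamus scores as covariates, the replicate number as a block and leaving out each library. Added after the data were seen were leaving out the 3 libraries of highest thalamus score, the endothelial score as a covariate, the choroid and thalamus scores together, and the kappaB motif.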

Additional observations from a re-analysis of the deposited data

Results flagged for a closer look

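In 5 genes, 1 library stood far from the rest of its vehicle group, by Dixon's criterion applied to the OVX and SHAM groups of the genes named (130 group tests). Chance alone flags about 1 in 20 groups, which is the rate to read these 5 against. Tmem252 was lowest in SHAM replicate 6, at 39.7 normalised counts, with the next SHAM library at 57.6 and the highest at 65.7. The NF-kappaB subunit Relb was lowest in OVX replicate 3, at 80.5, with the next at 104 and the highest at 127. The thalamic factor Tcf7l2 was highest in SHAM replicate 5, at 3357, with the next at 391.5 and the lowest at 286, and the kainate receptor gene Grik5 was lowest in the same library, at 6925, with the next at 8488 and the highest at 9302. The ribosomal protein gene Rps10 was lowest in OVX replicate 7, at 1360, with the next at 1520 and the highest at 1620.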

How the results depend on the processing

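The 2 genes called became 1 with no filter on low values (Fdft1), with a robust fit, with OVX and SHAM as separate means, with SHAM only and with the library set as a term over all 24 libraries (Pdk4 each time). They became 0 with OVX only, and 0 without the 3 libraries of highest thalamus score, where 578 genes had an unadjusted p under 0.05 in limma (533 with OVX only). They became 5 with library weights (Nfkbia, Errfi1 and Sgk1 added), 4 with the choroid score and 4 with the choroid and thalamus scores as covariates (Errfi1 and Sgk1 added), 6 with the endothelial score (Ddit4 and Foxq1 also added) and 8 with all 5 Treatment libraries (Sgk1, Fam57b, Per1, Tiparp and Ddit4 among those added). The cause was not tested. Leaving out 1 library at a time gave 0 to 2. Without Treatment 7 the 2 were other features, Rhbdl2 and 1 without a symbol, both on the lower side. The other 7 alternatives, other than the block below, kept both calls. The thalamus set, the endothelial score and the paired scores were chosen after seeing the data.

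Same-numbered libraries did not deviate together: their 13 correlations ran from -0.41 to 0.34 with a median of -0.15, and 2 were above 0.1. The 78 pairs of different number had a median of 0.02, with 37 above 0.1. So few same-numbered pairs cannot exclude a weak pairing by number. With the replicate number as a block, no gene passed in limma (0 called), and 515 had an unadjusted p below 0.05.

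Of 2397 values of 65 genes under 37 alternatives, 39 changed sign, in 9 genes that did not pass. Leaving out 1 library at a time gave -0.89 to 0.20 for Esr1, -0.064 to 0.47 for Esr2, -0.034 to 0.19 for Gper1, -0.042 to 0.11 for Pgr, -0.13 to 0.11 for Nr3c2, -0.52 to 2.55 for Ttr, -0.43 to 0.74 for Tcf7l2, -0.086 to 0.045 for Pdk1 and -0.058 to 0.015 for Pdk2, each turning sign through a Treatment library, and Pgr and Nr3c2 also through vehicle libraries (OVX 1, 2 and 3, and OVX 2, OVX 6 and SHAM 5). Without the 3 libraries of highest thalamus score Esr2 was -0.077, Gper1 -0.041, Pgr -0.063, Ttr -0.47, Tcf7l2 -0.042 and Pdk1 0.027. With the replicate block Gper1 was -0.013, Pgr -0.078 and Tcf7l2 -0.0075. With library weights Pgr was -0.036 and Nr3c2 -0.015, and with SHAM only they were -0.064 and -0.11. With all 5 Treatment libraries Pgr was -0.014, Ttr -1.07 and Pdk1 0.059. With the endothelial score Gper1 was -0.0066 and Ttr -0.86. With the thalamus score Tcf7l2 was -0.17 and Pdk2 0.00042, and with both scores they were -0.15 and 0.00014.

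Over the same alternatives 24 to 27 glucocorticoid-responsive genes were higher. No scaling moved the median of all genes by over 0.01. With 3 Treatment libraries the spread between libraries sets the size of difference that passes, and read depth is unknown.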

Other observations

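Slfn4, a Schlafen gene of myeloid cells that interferon induces, was chosen after its values were seen. It measured 178, 238 and 623 normalised counts in Treatment 5, 6 and 7, against 160, 9853 and 22908 as the lowest, median and highest vehicle library. SHAM ranged from 4109 to 22908 and OVX from 160 to 14720, so the Treatment libraries lay below every SHAM library. They lay inside the OVX range only through OVX 2, at 160. The next lowest OVX library, OVX 1, had 824, above all Treatment libraries. The change was -4.09 ± 1.11 on the log2 scale, with an unadjusted p of 0.00152 and an adjusted p of 0.677 in limma. Treatment 1 and 2, outside the fit, measured 580 and 3005, and Prevention ranged from 516 to 3999, all below every SHAM library.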
